A study of Mus musculus with 15 samples.

Results

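The interferon-stimulated genes of mouse bone marrow-derived macrophages (BMDMs) are described here as a list of 56 symbols whose Ensembl identifiers were looked up in the raw count matrix. All 56 were found among its 53465 identifiers, and the list was set by symbol rather than by a threshold on values. Bone marrow was cultured for 7 days in DMEM with 10% FBS and 20 ng/ml M-CSF, and the resulting BMDMs were left untreated (control) or received IL-4, IL-4/IL-6, IL-13 or IL-13/IL-6 for 24 h. IL-4 was given at 10 ng/ml, and IL-6 beside it at 40 ng/ml. The study's text gives no dose for the IL-13 and IL-13/IL-6 libraries. In other 24 h treatments of BMDMs it used IL-13 and IL-6 each at 40 ng/ml. RNAseq was made of 3 replicates per group, 15 libraries in all. The study's methods describe marrow from mice of 8 to 12 weeks, and the sample labels give no genotype. IL-6 was not added alone, so its effect can be read only on top of IL-4 or IL-13, and the doses of IL-4 and IL-13 may differ.

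Interferon-stimulated genes (ISGs) encode the antiviral state of a cell. Type I interferons bind the IFNAR1/IFNAR2 receptor, whose kinases JAK1 and TYK2 activate a STAT complex with IRF9 that binds the interferon-stimulated response element (ISRE) in ISG promoters, whereas interferon-gamma acts mainly through GAS elements and drives the guanylate-binding proteins strongly. IL-4 and IL-13 signal through STAT6 and IL-6 through STAT3, and macrophages in culture are known to carry a low basal interferon signal.

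The core of the ISRE can be read in the promoters of many of these genes. RefSeq promoters of 300 bases on GRCm38.p6, from 250 bases before to 50 bases after the annotated start, were at hand for 43 of the 56 members. The ISRE core was searched as GAAA, any 2 bases and GAAA again, on both strands, so that a match on the other strand reads TTTC, any 2 bases and TTTC. It was present in 28 of these 43 members (65.1%) and in 3.99% of all 27025 genes with a promoter in the same set. The letters TTCNNNGAA, the GAS core, which read the same on both strands, was present in 10 members (23.3%) and in 9.55% of all genes. A match is a run of letters, not a measured binding site. The promoters of Isg15 (chr4:156200769-156201068, minus strand), Ifitm3 (chr7:141010695-141010994, minus strand), Gbp7 (chr3:142530086-142530385, plus strand) and Ifi209 (chr1:173630609-173630908, plus strand) are printed because their transcripts took different courses across the treatments below. Capitals mark either motif, and overlapping matches run together. Isg15 has 3 ISRE-core matches, Ifitm3 has 2 and a GAS core, Gbp7 has 1 and 2 GAS cores, and Ifi209 has neither run of letters in this window.
Isg15: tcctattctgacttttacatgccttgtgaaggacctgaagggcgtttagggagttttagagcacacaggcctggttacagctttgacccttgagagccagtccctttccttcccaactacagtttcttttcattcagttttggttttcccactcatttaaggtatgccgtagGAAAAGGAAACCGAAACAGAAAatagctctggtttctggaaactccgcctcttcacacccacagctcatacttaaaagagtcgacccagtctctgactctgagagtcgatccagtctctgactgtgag
Ifitm3: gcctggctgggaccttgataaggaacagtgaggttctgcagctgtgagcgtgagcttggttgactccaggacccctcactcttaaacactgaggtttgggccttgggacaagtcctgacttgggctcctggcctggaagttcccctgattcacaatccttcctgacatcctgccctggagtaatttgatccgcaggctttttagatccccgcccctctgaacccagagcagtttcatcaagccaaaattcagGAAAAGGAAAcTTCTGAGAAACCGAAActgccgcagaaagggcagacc
Gbp7: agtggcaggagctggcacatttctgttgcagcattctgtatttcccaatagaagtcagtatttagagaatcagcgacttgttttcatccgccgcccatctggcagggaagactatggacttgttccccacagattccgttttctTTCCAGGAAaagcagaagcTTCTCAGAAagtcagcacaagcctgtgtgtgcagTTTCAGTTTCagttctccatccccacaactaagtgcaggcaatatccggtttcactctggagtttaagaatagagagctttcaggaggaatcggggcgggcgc
Ifi209: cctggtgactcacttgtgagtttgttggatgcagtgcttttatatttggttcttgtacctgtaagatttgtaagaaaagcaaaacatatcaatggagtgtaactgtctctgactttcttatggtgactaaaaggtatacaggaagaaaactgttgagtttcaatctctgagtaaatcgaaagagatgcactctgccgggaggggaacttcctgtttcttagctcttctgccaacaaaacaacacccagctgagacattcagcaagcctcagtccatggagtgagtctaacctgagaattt

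Close relatives carried like or identical stretches around the match, shown in the next windows with 10 bases on either side and the ISRE-core letters in capitals. Ifit3 (chr19:34583363-34583392) and Ifit3b (chr19:34607759-34607788), both on the plus strand, shared the whole window, as did Oas1a (chr5:120907520-120907555) and Oas1g (chr5:120887606-120887641) on the minus strand, where 2 matches overlap. Ifi203 (chr1:173942508-173942537) and Ifi207 (chr1:173741831-173741860), on the minus strand, and Irgm2 (chr11:58214903-58214932) and Igtp (chr11:58199512-58199541), on the plus strand, shared the capital letters but not every flanking base. Bst2 (chr8:71537577-71537612, minus strand) also held 2 overlapping matches. Reads of such paralogs can be split between them by the counting, so the separate values of Ifit3 and Ifit3b, of Oas1a and Oas1g and within the Ifi200 family are uncertain. The annotated exons of Irgm2 and Igtp share 162 bases on the same strand, and those of Parp9 and Dtx3l share 458 bases on opposite strands.
Ifit3: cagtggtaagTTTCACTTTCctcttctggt
Ifit3b: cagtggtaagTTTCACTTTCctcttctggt
Oas1a: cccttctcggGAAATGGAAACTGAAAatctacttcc
Oas1g: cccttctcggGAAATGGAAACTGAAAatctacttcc
Ifi203: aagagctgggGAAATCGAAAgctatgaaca
Ifi207: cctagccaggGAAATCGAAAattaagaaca
Irgm2: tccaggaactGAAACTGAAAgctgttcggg
Igtp: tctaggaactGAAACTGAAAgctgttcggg
Bst2: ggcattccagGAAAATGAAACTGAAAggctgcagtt

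Library totals lay between 17001352 and 18918686 counts, and the 56 members together took 0.189% to 0.399% of them. All 56 passed the filter on low counts that left 13938 genes for testing. Macrophage markers (Adgre1, Csf1r, Cd68, Itgam, Fcgr1 and Mertk) summed to between 4617 and 5642 normalized CPM (counts scaled to library size with TMM factors) in every library, a sum carried by Csf1r, Cd68 and Adgre1. Mertk alone was at 143 CPM on average in the control and 8.27 to 17.9 CPM in the treated groups, and Fcgr1 ranged from 100.7 CPM with IL-4 to 479 CPM with IL-13/IL-6. Most markers of other cells were higher in the control. The 7 granulocyte and precursor markers summed to 460.1 to 547 CPM there and to at most 2.14 CPM in any treated library, and of 23 markers of other cells that could be tested, 21 were lower and 1 higher with IL-4 and likewise with IL-13 than in the control. Siglech and Ccr9, 2 of the 5 plasmacytoid dendritic cell markers, were at 5.48 and 3.71 CPM on average in the control and at 0 and at most 0.196 CPM in each treated group. Klk1 was at 0 in every treated library, Cox6a2 was called higher with IL-4 and with IL-13, and Tcf4, which carried the sum of the 5, was called higher on adding IL-6 to IL-4 and to IL-13. Whether the cells behind these markers take part in the differences between groups was not tested, and in bulk RNA fewer cells of a kind and less RNA per cell cannot be told apart. The labels number the replicates but do not say whether they came from separate mice or cultures, so the p-values measure the spread between these libraries.

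One library stood apart in these genes. In IL-13/IL-6 replicate 3 all 56 members were higher than in the other 2 libraries of its group, whereas 31.2% of the 13938 tested genes were highest in it. Relative to the mean of those 2 libraries the median member was 0.74 higher on the log2 scale, a distance exceeded by 2.96% of all tested genes. Relative to the control mean, the median member stood at log2 0.27 and 0.23 in IL-13/IL-6 replicates 1 and 2 and at 1.24 in replicate 3. The total of this library (18497754 counts), its macrophage marker sum (5642 against 5411 and 5416 CPM) and its granulocyte marker sum (1.67 against 1.45 and 1.95 CPM) were close to those of its group. Members leaned to single libraries in the other groups too. In IL-4/IL-6, 38 of 56 were lowest in replicate 1, where 23.3% of all tested genes were lowest, and 36 highest in replicate 3 (35.3% of all genes). In IL-13, 38 were lowest in replicate 1 (41.7% of all genes) and 38 highest in replicate 2 (35.4%). In the control 30 were lowest in replicate 1 (32.0%) and in IL-4 29 were lowest in replicate 3 (34.4%).

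**Figure D1:**
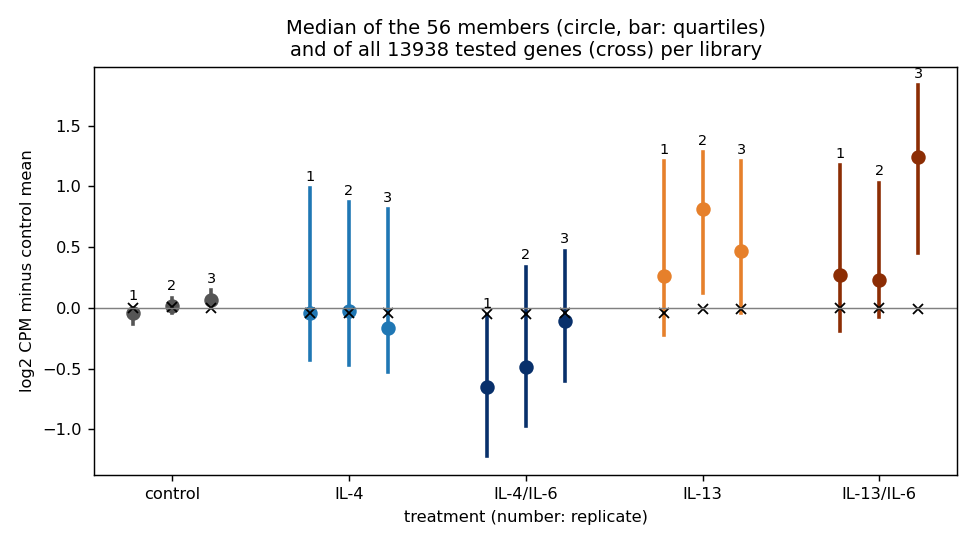
Median (circle) and quartiles (bar) of the 56 members in each of the 15 libraries, as log2 CPM minus the mean of the control libraries, with the median of all 13938 tested genes as a cross. IL-13/IL-6 replicate 3 sits at 1.24, above replicates 1 and 2 at 0.27 and 0.23, while the crosses of all libraries stay near 0.

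Levels between genes were compared per length, as FPKM. Ifitm3, which encodes a membrane protein that blocks virus entry, was the highest at a mean of 458 FPKM over all libraries, followed by Ifi27l2a (268 FPKM), which encodes a small interferon-inducible membrane protein, and Bst2 (259 FPKM), whose product tetherin holds budding virus at the cell surface. Oas1a (47.7 FPKM), Ifi207 (45.6), Trim25 (35.0), Isg15 (20.0), Trim30a (17.97), Parp14 (15.3), Irgm1 (9.08), Ifit3 (4.01) and Mx1 (1.91 FPKM) were the highest of the other role groups. By group means, 32 of the 56 members were highest in IL-13/IL-6, 13 in IL-13, 7 in the control, 3 in IL-4/IL-6 and 1 in IL-4. The lowest mean was in IL-4/IL-6 for 35 members, in the control for 15, in IL-4 for 5 and in IL-13 for 1. The place of IL-13/IL-6 rests on its replicate 3: from the mean of replicates 1 and 2 alone, chosen after seeing the data, 8 members were highest there, 30 in IL-13, 13 in the control, 3 in IL-4/IL-6 and 2 in IL-4, and the counts of lowest means stayed as given. These orders are descriptions, and for many members neighbouring groups overlap between libraries, as the map of all 56 genes by library shows.

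**Figure D2:**
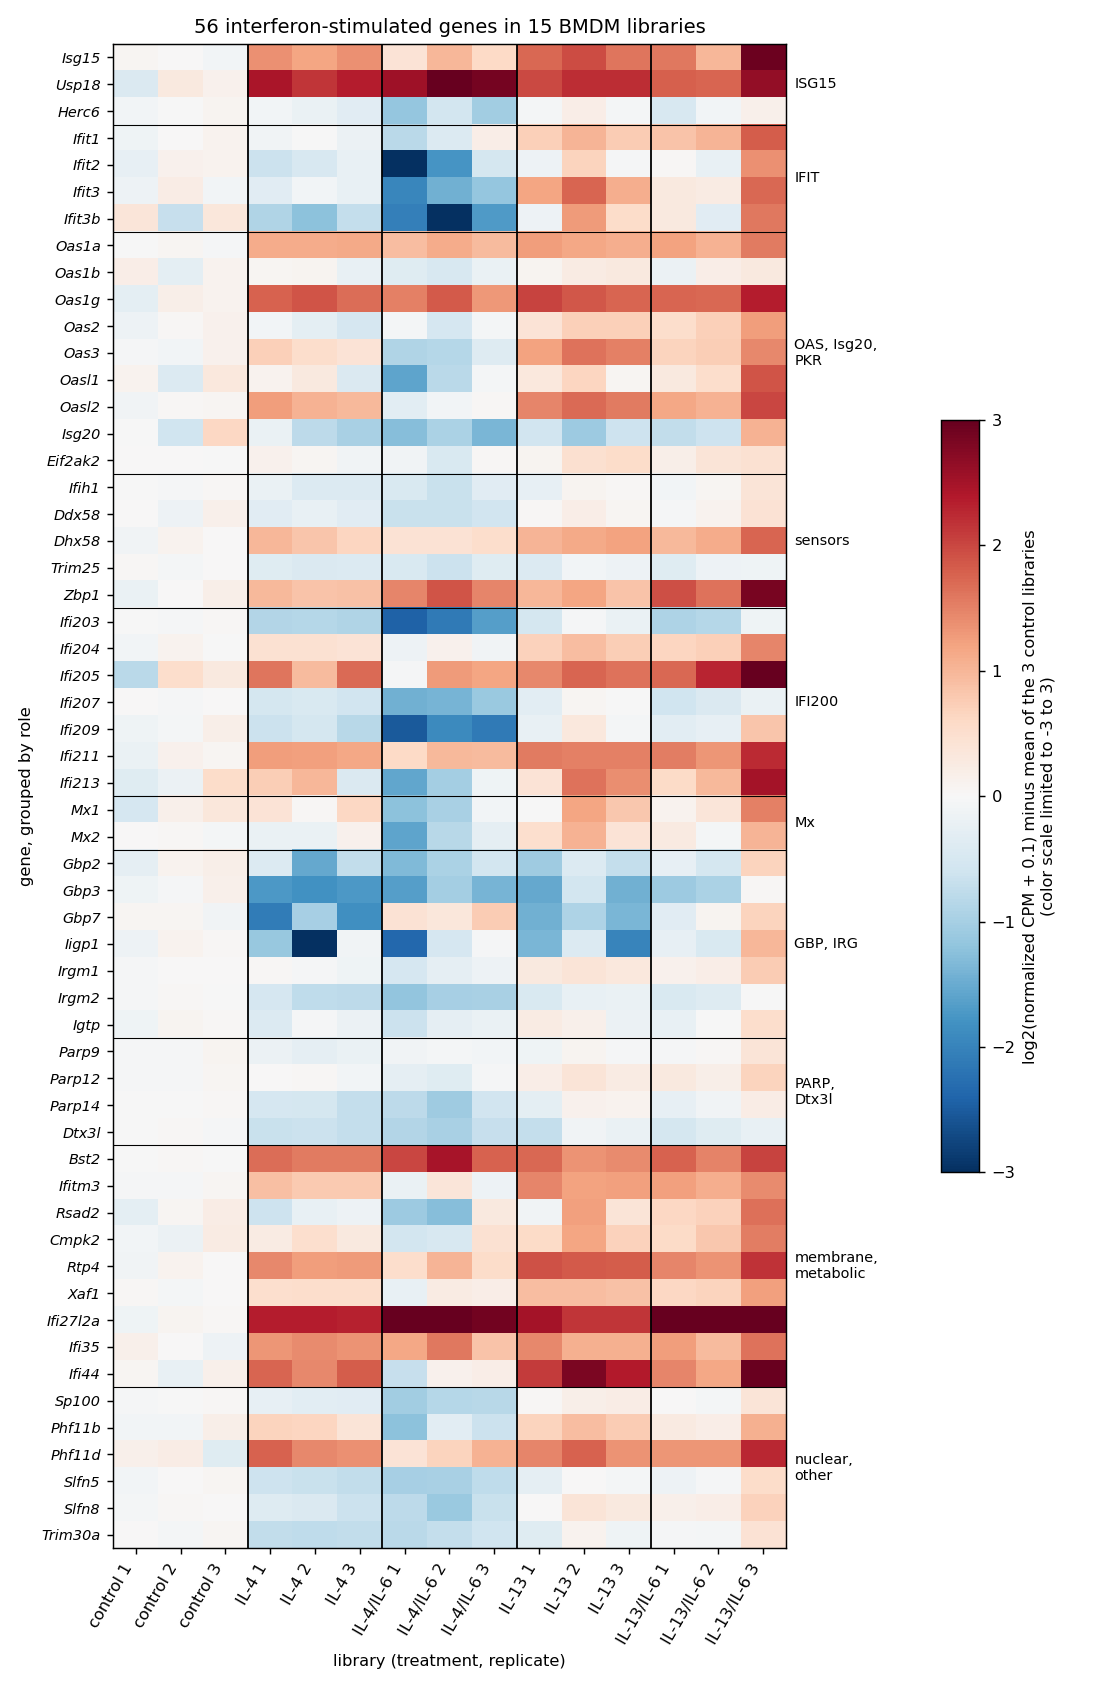
Color map of the 56 members (grouped by role) in the 15 libraries, as log2(normalized CPM + 0.1) minus the mean of the 3 control libraries, with colors limited to -3 to 3. IL-4/IL-6 has the lowest group mean for 35 of the 56 genes and IL-13/IL-6 the highest for 32, or for 8 without its replicate 3, and IL-13/IL-6 replicate 3 has the highest value of its group in all 56 genes, although all 3 libraries of that group pass the color limit for Ifi27l2a and look alike there.

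IL-4 divided the ISGs against the control. By the quasi-likelihood F test of edgeR, adjusted by Benjamini-Hochberg over the 13938 genes, 20 of 56 members rose and 16 fell with IL-4, where 32.1% of all tested genes were called higher and 35.9% lower, so the members were called about as often as genes at large. The median member changed by log2 -0.06, and the median over all tested genes was -0.05. The members that rose included 7 of 9 membrane and metabolic effectors, Isg15 and Usp18 of the 3 ISG15 conjugation genes, and 4 of 9 OAS, nuclease and PKR genes. The members that fell included 4 of 7 guanylate-binding and immunity-related GTPases, 4 of 6 nuclear and other regulators and 3 of 5 nucleic acid sensors and cofactors.

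Ifi27l2a stood at 17.8, 20.7 and 20.0 CPM in the control libraries and at 100.1, 99.8 and 97.2 CPM with IL-4. Usp18, the protease that removes ISG15 and dampens IFNAR signaling, read 2.81, 4.71 and 4.15 CPM in the control and 21.1, 17.0 and 19.8 CPM with IL-4. In both genes every IL-4 library was above every control library, the fold changes were 5.07 and 4.97, and the log2 changes were 2.34 ± 0.159 (SE, edgeR adjusted p = 9.25e-10) and 2.31 ± 0.236 (edgeR adjusted p = 1.74e-07). Ifi44, a cytoplasmic antiviral ISG of low level, went from 0.834, 0.665 and 0.898 CPM to 2.89, 2.32 and 3.06 CPM, by 1.78 ± 0.454 on the log2 scale (edgeR adjusted p = 0.00235). Isg15, the ubiquitin-like modifier, was at 6.20, 5.93 and 5.61 CPM in the control and 15.4, 13.6 and 15.3 CPM with IL-4, again without overlap, and rose by 1.32 ± 0.355 (edgeR adjusted p = 0.00338). Bst2 moved from 80.0, 83.4 and 79.8 CPM to 258, 240.0 and 240.5 CPM, a log2 change of 1.60 ± 0.153 (edgeR adjusted p = 8.00e-08), and Oas1a, a synthetase of oligoadenylate messengers, from 45.1, 47.4 and 44.7 CPM to 98.4, 99.5 and 99.9 CPM, a log2 change of 1.12 ± 0.103 (edgeR adjusted p = 4.84e-08).

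The 3 guanylate-binding protein genes of the list, whose GTPases attack pathogen vacuoles, fell. Gbp3 measured 7.71, 8.26 and 9.31 CPM in the control and 2.46, 2.32 and 2.46 CPM with IL-4, 3.48-fold lower (log2 -1.80 ± 0.298, edgeR adjusted p = 4.72e-05). Gbp7 measured 6.98, 6.98 and 6.23 CPM in the control and 1.498, 3.32 and 1.80 CPM with IL-4, 3.05-fold lower (log2 -1.61 ± 0.281, edgeR adjusted p = 8.19e-05). Neither gene overlapped between the groups, and Gbp2, at 9.22, 12.1 and 12.6 CPM and 8.46, 3.82 and 6.66 CPM, fell by less (log2 -0.83, edgeR adjusted p = 0.0232). Ifi203, of the IFI200 family of nuclear DNA-binding proteins, fell from 47.9, 47.3 and 49.9 CPM to 26.3, 26.6 and 25.9 CPM (log2 -0.88 ± 0.185, edgeR adjusted p = 0.000463). The larger IFI200 family split, with Ifi204, Ifi205 and Ifi211 higher and Ifi203, Ifi207 and Ifi209 lower. Smaller falls reached genes of high level, such as Trim25, a ubiquitin ligase that activates RIG-I, at 246, 230.5 and 240.4 CPM in the control and 185, 177 and 179.9 CPM with IL-4 (log2 -0.40, edgeR adjusted p = 0.000771), Parp14 (log2 -0.58, adjusted p = 0.00122) and Trim30a (log2 -0.75, adjusted p = 4.67e-05). The 4 IFIT genes, which encode proteins that bind foreign RNA, and both Mx GTPases did not pass the test, with log2 changes from -1.18 for Ifit3b to 0.33 for Mx1. The annotation lists Mx2, like Oas1b of the OAS family, as a polymorphic pseudogene, which is not coding in every strain.

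IL-13 raised more of the members. Against the same control libraries 28 of 56 rose and 5 fell by the edgeR test, where 29% of all tested genes were called higher and 31.1% lower. The median member was higher by log2 0.61, and the median over all tested genes was -0.02. The risen members included 8 of 9 membrane and metabolic effectors, 6 of 9 OAS, nuclease and PKR genes, Ifit1 and Ifit3 of the 4 IFIT genes, 3 of 7 IFI200 genes and 2 of 3 ISG15 conjugation genes. The fallen members were Gbp2, Gbp3, Gbp7, Irgm2 and Dtx3l. Fewer of these 5 passed the test with some libraries left out: the count fell to 2 without any one of control replicates 2 and 3, IL-4 replicates 1 and 3, IL-4/IL-6 replicate 1, IL-13 replicate 1 and IL-13/IL-6 replicate 1, and to 3 without control replicate 1, IL-4 replicate 2 or IL-13 replicate 3.

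Ifi44 was measured at 3.75, 6.19 and 4.53 CPM with IL-13, above every control library, a 5.99-fold rise (log2 2.58 ± 0.430, edgeR adjusted p = 6.29e-05). Ifi27l2a was at 110.1, 86.9 and 87.2 CPM (log2 2.28 ± 0.159, edgeR adjusted p = 1.83e-09) and Usp18 at 15.4, 17.9 and 18.1 CPM (log2 2.14 ± 0.237, edgeR adjusted p = 6.34e-07). For these genes the IL-13 libraries and the control libraries did not overlap. Isg15 read 19.9, 23.3 and 18.3 CPM (log2 1.79 ± 0.349, edgeR adjusted p = 0.000296) and Ifit3 11.7, 17.5 and 11.1 CPM against 4.64, 5.98 and 4.88 CPM in the control (log2 1.38 ± 0.316, edgeR adjusted p = 0.00122). Ifitm3 rose from 177, 174 and 189 CPM to 500.0, 412 and 419 CPM (log2 1.303 ± 0.125, edgeR adjusted p = 1.08e-07), and its IL-4 libraries, at 335, 309 and 312 CPM, lay in between. Gbp7 was lower with IL-13 at 2.41, 3.49 and 2.52 CPM (log2 -1.26 ± 0.271, edgeR adjusted p = 0.000691), and so were Gbp3 at 2.84, 5.69 and 3.04 CPM (log2 -1.13, adjusted p = 0.00222) and Gbp2 at 5.25, 8.33 and 6.80 CPM (log2 -0.73, adjusted p = 0.0469). The directions of Gbp3, Gbp7, Ifi27l2a, Usp18 and Ifi44 can be set beside those with IL-4 only as values, since both comparisons share the control libraries.

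Set directly against IL-4, IL-13 gave higher values in 15 of 56 members and a lower value in 0, where 7.61% of all tested genes were called higher and 5.16% lower by edgeR. At an unadjusted p under 0.05 the counts were 29 higher and 0 lower, for which no share of all genes is given. DESeq2 called 17 higher and 0 lower, where it called 8.82% of all tested genes higher and 6.61% lower. The median difference of the members was log2 0.37. Ifit3 was at 4.07, 4.87 and 4.37 CPM with IL-4 and 11.7, 17.5 and 11.1 CPM with IL-13 (log2 1.60 ± 0.322, edgeR adjusted p = 0.00261), with no overlap. Ifitm3, at the library values given above, was also higher without overlap (log2 0.48 ± 0.123, edgeR adjusted p = 0.0150). The called members also included 4 of the 6 nuclear and other regulators and Ifi203 and Ifi207 of the IFI200 family. Ifi44 was not called (log2 0.80, edgeR adjusted p = 0.161) although its libraries did not overlap. The number called was 31 without the filter on low counts, where 1273 of 25254 genes were called higher, and 28 in a fit of both groups alone, where 1068 of 12751 were, against 1060 of 13938 with all groups and the filter. With 1 library left out it was 7 without IL-4 replicate 3 and 8 without IL-13 replicate 2. It was 23 without IL-4/IL-6 replicate 2 or without IL-13/IL-6 replicate 3. The co-treated libraries are not in this comparison and enter only through the filter, scaling and spread estimate of the shared fit. The share of all tested genes called in these fits is not given here. The IL-13 dose of these libraries is not stated, so dose and cytokine cannot be told apart.

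**Figure D3:**
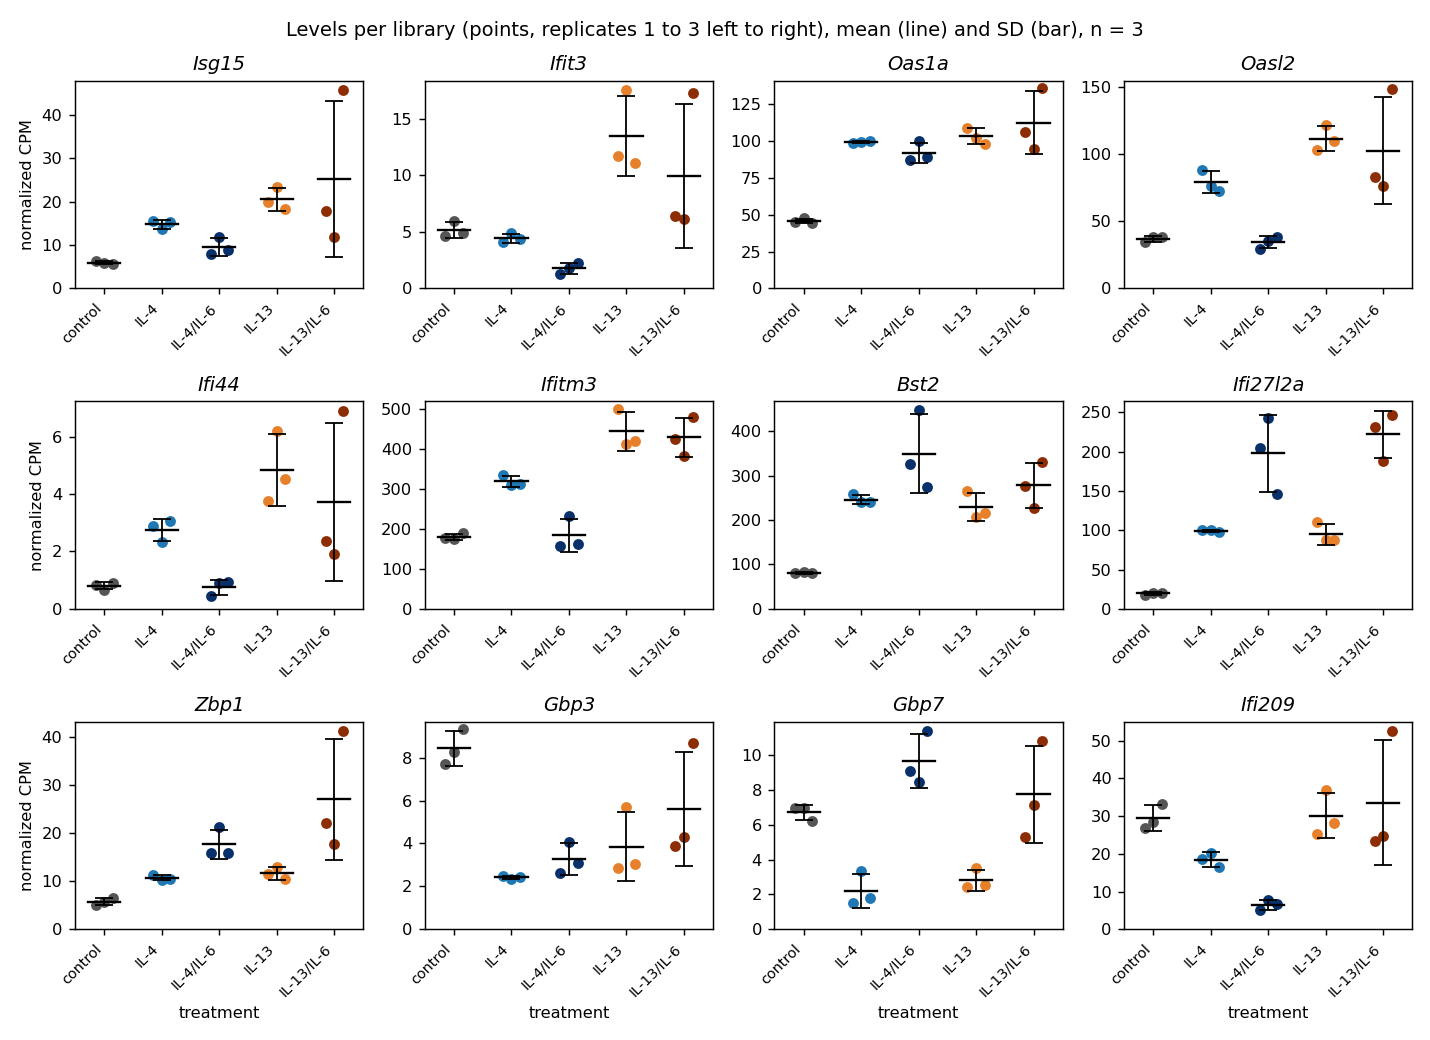
Normalized CPM (linear axis from 0) of 12 members in every library by treatment, with the mean as a line and the SD as a bar (n = 3). Gbp7, Ifi27l2a and Zbp1 are higher with IL-6 than without it on both cytokines, Ifi209, Oasl2 and Ifitm3 are lower once IL-6 joins IL-4, and the third point of IL-13/IL-6 is the highest of its group in each panel.

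Adding IL-6 to IL-4 lowered more of the ISGs than it raised. Of the 56 members, 5 rose and 18 fell between IL-4 and IL-4/IL-6 by the edgeR test, where 20.7% of all tested genes were called higher and 18.7% lower. The median member changed by log2 -0.37, and the median over all tested genes was 0.04. The fallen members included 4 of 7 IFI200 genes, 4 of 9 membrane and metabolic effectors, 3 of 6 nuclear and other regulators, Oas3, Oasl2, Ifit3, Mx1, Herc6, Ddx58 and Irgm2. The 5 that rose were Gbp7, Ifi27l2a, Zbp1, Usp18 and Bst2. Their number was 2 without IL-4 replicate 2, 2 without IL-4/IL-6 replicate 2 and 3 without IL-4 replicate 3, and the number that fell ranged from 12 to 27 over the fits that leave out 1 library. No share of all tested genes is given for those fits. With upper-quartile scaling the split over all tested genes moved from 2885 higher and 2603 lower to 2073 and 3245, and that of the members to 4 higher and 22 lower. Without the filter on low counts 30 members were called lower, where 11.1% of 25254 genes were.

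Ifi44 was at 2.89, 2.32 and 3.06 CPM with IL-4 and 0.454, 0.884 and 0.921 CPM with IL-4/IL-6, 3.65-fold lower (log2 -1.87 ± 0.465, edgeR adjusted p = 0.00375). Ifi209 read 18.7, 20.2 and 16.4 CPM with IL-4 and 5.05, 7.78 and 6.62 CPM with IL-4/IL-6, 2.85-fold lower (log2 -1.51 ± 0.276, edgeR adjusted p = 0.000271). Ifit3 went from 4.07, 4.87 and 4.37 CPM to 1.25, 1.83 and 2.25 CPM (log2 -1.32 ± 0.402, edgeR adjusted p = 0.0145). None of these genes overlapped between the groups. The Ifit3 paralog Ifit3b was at or under 3 counts in every IL-4/IL-6 library, which puts it at least 2.09-fold lower than in IL-4 and at least 4.80-fold lower than in the control, though the edgeR test called only the latter. Oasl2, of the OAS-like branch of the family, fell from 88.3, 76.1 and 72.7 CPM to 29.6, 35.0 and 38.2 CPM (log2 -1.21 ± 0.186, edgeR adjusted p = 4.77e-05), Ifitm3 from 335, 309 and 312 CPM to 157, 232 and 161 CPM (log2 -0.80 ± 0.124, edgeR adjusted p = 5.27e-05) and Phf11b from 16.0, 15.7 and 13.3 CPM to 4.25, 8.07 and 6.45 CPM (log2 -1.26 ± 0.227, edgeR adjusted p = 0.000227). The IL-4/IL-6 values of Oasl2 and Ifitm3 overlapped those of the control, at 34.4, 38.2 and 38.4 CPM and 177, 174 and 189 CPM. Ifi203, already lower with IL-4, read 8.96, 11.1 and 15.3 CPM with IL-4/IL-6 (log2 -1.16 from IL-4, edgeR adjusted p = 0.000167).

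Gbp7 went the opposite way and was at 9.07, 8.49 and 11.4 CPM with IL-4/IL-6 after 1.498, 3.32 and 1.80 CPM with IL-4, 4.38-fold higher (log2 2.13 ± 0.275, edgeR adjusted p = 6.72e-06), which placed it above all 3 control libraries as well. Ifi27l2a reached 205, 243 and 146 CPM (log2 1.00 ± 0.144 over IL-4, edgeR adjusted p = 2.41e-05). Zbp1, the sensor of Z-form nucleic acids that can start necroptosis, was at 11.3, 10.4 and 10.5 CPM with IL-4 and 15.9, 21.2 and 15.9 CPM with IL-4/IL-6 (log2 0.72 ± 0.234, edgeR adjusted p = 0.0214). The libraries of these 3 genes did not overlap. Usp18 rose to 22.7, 32.2 and 28.4 CPM (log2 0.52, edgeR adjusted p = 0.0461) and Bst2 to 326, 449 and 275 CPM (log2 0.51, adjusted p = 0.0113). The GBP family was not uniform, for Gbp2 and Gbp3 changed by log2 -0.09 and 0.43 without passing the test (edgeR adjusted p = 0.852 and 0.323). Among the 43 members with a promoter at hand, 2 of the 28 with the ISRE-core letters rose and 8 fell, and of the 15 without them 0 rose and 7 fell by edgeR, to be read against the 20.7% and 18.7% of all tested genes.

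Against the control, IL-4/IL-6 left 11 members higher and 23 lower by edgeR, where 35.4% and 37.5% of all tested genes were called, and the median member stood at log2 -0.43. Ifi209, at 26.8, 28.4 and 33.2 CPM in the control, differed by -2.18 ± 0.271 (edgeR adjusted p = 1.46e-06), and Ifi203 by -2.04 ± 0.199 (edgeR adjusted p = 7.37e-08), whereas Ifi27l2a was higher by 3.34 ± 0.162 (edgeR adjusted p = 6.70e-12) and Usp18 by 2.84 ± 0.234 (edgeR adjusted p = 8.21e-09).

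With IL-13, co-addition of IL-6 raised Gbp7, Ifi27l2a and Zbp1 and lowered Ifi207, and the other 52 members were not called, where 12.1% of all tested genes were called higher and 13.5% lower. Gbp7 was at 5.32, 7.16 and 10.8 CPM with IL-13/IL-6 against 2.41, 3.49 and 2.52 CPM with IL-13 (log2 1.47 ± 0.269, edgeR adjusted p = 0.000459). Ifi27l2a was at 231, 188 and 246 CPM against 110.1, 86.9 and 87.2 CPM (log2 1.23 ± 0.145, edgeR adjusted p = 4.22e-06), and Zbp1 at 22.04, 17.8 and 41.3 CPM against 11.51, 13.01 and 10.4 CPM (log2 1.22 ± 0.229, edgeR adjusted p = 0.000580). No IL-13/IL-6 library of these 3 genes overlapped an IL-13 library, and all 3 remained called without IL-13/IL-6 replicate 3, at log2 1.15, 1.14 and 0.76. The comparison shares no library with that of IL-4/IL-6 and IL-4, in which the same 3 genes rose. Ifi207 was at 164, 211 and 202 CPM with IL-13 and 135, 150.1 and 176 CPM with IL-13/IL-6, which overlap (log2 -0.32 ± 0.105, edgeR adjusted p = 0.0305). Without the filter on low counts 16 members were called higher and 3 lower, where 7.30% and 7.12% of 25254 genes were.

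The direction of the remaining members with IL-13/IL-6 turned on replicate 3. With all libraries the median member differed from IL-13 by log2 0.12, and 3 were called higher and 1 lower. Without replicate 3 the median was -0.15, with 3 called higher and 8 lower, where 9.43% of all tested genes were called higher and 11.4% lower. The 8 were Ifi44, Ifit3, Oas3, Ifi203, Phf11b, Oasl2, Rtp4 and Ifi207. Ifit3 illustrates the change: its IL-13 libraries read 11.7, 17.5 and 11.1 CPM and its IL-13/IL-6 libraries 6.36, 6.13 and 17.3 CPM, which gave log2 -0.43 ± 0.298 (edgeR adjusted p = 0.337) with replicate 3 and -1.11 ± 0.211 (edgeR adjusted p = 0.00100) without it. Ifi44 read 2.37, 1.90 and 6.90 CPM with IL-13/IL-6, and its change from IL-13 was -0.37 ± 0.350 (edgeR adjusted p = 0.505) with replicate 3 and -1.18 ± 0.266 (edgeR adjusted p = 0.00386) without it. Isg15 read 17.9, 11.9 and 45.7 CPM, with replicates 1 and 2 below the IL-13 libraries and replicate 3 above them. The number called lower was 0 without IL-13 replicate 2 or 3, and 0 without IL-13/IL-6 replicate 1 or 2, and 2 without IL-13 replicate 1 or without IL-4/IL-6 replicate 2 or 3.

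**Figure D4:**
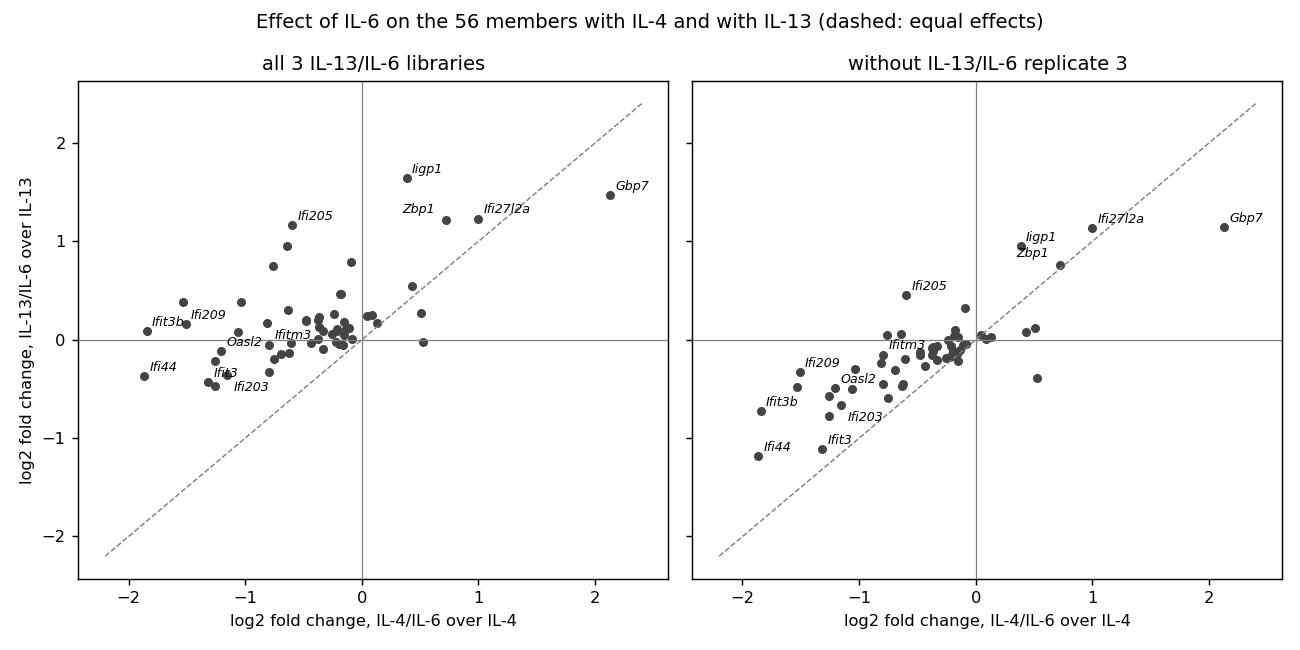
Log2 fold change of the 56 members when IL-6 was added, with IL-4 (horizontal) and with IL-13 (vertical), from all IL-13/IL-6 libraries (left) and without IL-13/IL-6 replicate 3 (right). The dashed line marks equal effects; the vertical median moves from 0.12 to -0.15 when replicate 3 is left out, and Gbp7, Ifi27l2a and Zbp1 stay at the upper right in both panels.

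The test of the difference between the IL-6 effects called 5 members, all with a more positive effect on IL-13 than on IL-4, where 4.42% of all tested genes were called in that direction and 3.22% in the other. In the other direction edgeR called 0 members, 0 had an unadjusted p under 0.05 and DESeq2 called 0. Ifi209 was at 25.3, 36.8 and 28.2 CPM with IL-13 and 23.4, 24.7 and 52.6 CPM with IL-13/IL-6, and the effects differed by log2 1.67 ± 0.363 (edgeR adjusted p = 0.00714). Oasl2, at 103, 121 and 109 CPM with IL-13 and 82.8, 76.4 and 148 CPM with IL-13/IL-6, differed by 1.09 ± 0.256 (edgeR adjusted p = 0.0125), and Phf11b, at 16.0, 19.3 and 17.2 CPM and 12.1, 11.7 and 21.4 CPM, by 1.04 ± 0.307 (edgeR adjusted p = 0.0467). Ifitm3 differed by 0.74 ± 0.174 (edgeR adjusted p = 0.0117) and Sp100, a nuclear body protein gene, by 0.58 ± 0.138 (edgeR adjusted p = 0.0132). Ifitm3 was at 424, 381 and 479.7 CPM with IL-13/IL-6, so that the IL-13 libraries with and without IL-6 overlapped, unlike those of IL-4. Without IL-13/IL-6 replicate 3 Ifi209 (1.20), Oasl2 (0.73), Ifitm3 (0.67) and Sp100 (0.44) remained called (background 3.59% in this direction and 2.2% in the other), Phf11b (0.72, adjusted p = 0.113) did not, and Usp18 was called in the other direction (-0.89, edgeR adjusted p = 0.0251). Upper-quartile scaling moved the split over all tested genes from 616 and 449 to 757 and 352 and that of the members to 6 and 0. DESeq2 called 10 members in the direction of the 5 (742 of all 13938 genes, where edgeR called 616), and edgeR called 28 without the filter on low counts (851 of 25254 genes). The number called was 10 without IL-4/IL-6 replicate 3, 12 without IL-13/IL-6 replicate 1 and 9 without IL-13/IL-6 replicate 2. For these 3 fits the share of all tested genes is not given, so whether genes at large shifted alike is not shown.

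Between the co-treated groups, 47 of 56 members were higher with IL-13/IL-6 than with IL-4/IL-6 and 1, Usp18, was lower, where 15.5% of all tested genes were called higher and 15.8% lower by edgeR. The median difference was log2 0.98. Without IL-13/IL-6 replicate 3 the counts were 39 higher and 2 lower and the median 0.64, where 13.3% and 12.1% of all tested genes were called. All 7 IFI200 genes, the 4 IFIT genes, both Mx genes, the 5 sensors and cofactors and the 6 nuclear and other regulators were among the 47. Without replicate 3 the IFI200, IFIT and nuclear groups were still called whole, but 3 of the 5 sensors and cofactors, 1 of the 2 Mx genes, 5 of the 9 OAS, nuclease and PKR genes (8 with it) and 2 of the 7 GTPases (4 with it) were called. Ifi209 differed by 2.37 ± 0.270 (edgeR adjusted p = 3.23e-06), Ifitm3 by 1.22 ± 0.125 (edgeR adjusted p = 8.68e-07) and Ifit3 by 2.48 ± 0.375 (edgeR adjusted p = 6.95e-05), each without overlap of the libraries. Without replicate 3 the differences were 1.90 ± 0.175, 1.14 ± 0.129 and 1.82 ± 0.249 (edgeR adjusted p = 7.81e-07, 7.10e-06 and 5.12e-05). Mx1, a GTPase that blocks virus replication, was at 2.27, 2.71 and 5.13 CPM with IL-4/IL-6 and 5.90, 7.00 and 15.7 CPM with IL-13/IL-6, and its values in the control (3.80, 6.10 and 6.90 CPM), with IL-4 (7.22, 5.54 and 8.35 CPM) and with IL-13 (5.36, 12.4 and 9.53 CPM) overlapped each other. The difference of Mx1 between the co-treated groups was log2 1.502 ± 0.396 (edgeR adjusted p = 0.00786) with replicate 3 and 0.94 ± 0.366 (edgeR adjusted p = 0.0717) without it. Against the control, IL-13/IL-6 had 31 members higher and 4 lower (background 31.9% and 32.1%), and 23 higher and 5 lower without replicate 3 (background 30.2% and 28.7%). The number lower was 1 without IL-13/IL-6 replicate 1 and 2 without its replicate 2. In the comparison of the co-treated groups the number lower was 0 without IL-13/IL-6 replicate 1 or 2, and 2 without IL-4/IL-6 replicate 3.

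Among the most abundant members of the other role groups, Trim25 was at 173, 152 and 185 CPM with IL-4/IL-6 and read 178, 225 and 216 CPM with IL-13 and 187, 217 and 219 CPM with IL-13/IL-6. Parp14, an ADP-ribosyltransferase known as a STAT6 cofactor, was at 165, 167 and 171 CPM in the control, 119, 117 and 102 with IL-4, 96.5, 79.8 and 113 with IL-4/IL-6, 136, 184 and 180.2 with IL-13 and 142, 155 and 197 CPM with IL-13/IL-6. Irgm1, an immunity-related GTPase that regulates the others of its family, was at 48.0, 49.6 and 49.8 CPM in the control, 50.04, 48.0 and 45.1 with IL-4, 34.7, 40.9 and 44.5 with IL-4/IL-6, 59.8, 64.4 and 61.3 with IL-13 and 53.7, 55.98 and 83.8 CPM with IL-13/IL-6. Of Trim25, Parp14 and Irgm1, only Irgm1 rose with IL-13 over the control (log2 0.33, edgeR adjusted p = 0.0366). Trim30a, of the Trim family of ubiquitin ligases, read 87.3, 83.0 and 90.9 CPM in the control, 52.1, 51.2 and 52.4 with IL-4, 50.01, 53.1 and 57.8 with IL-4/IL-6, 67.7, 93.4 and 80.2 with IL-13 and 84.5, 83.1 and 117 CPM with IL-13/IL-6, and all 6 libraries with IL-4 in the medium were below all others. Oas1a overlapped among the treated groups, at 86.9, 99.6 and 88.8 CPM with IL-4/IL-6, 109, 102 and 98.0 with IL-13 and 106, 94.7 and 136 CPM with IL-13/IL-6. Bst2 was at 267, 207 and 216 CPM with IL-13 and 278, 228 and 330.0 CPM with IL-13/IL-6, which overlap.

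Transcripts of the interferon ligands were at or near 0 counts. Of 20 interferon ligand genes, 18 had 0 counts in all 15 libraries, and Ifna13 and Ifnk had 9 counts in total and at most 3 in a library, the limit used here for a count of 0, which corresponds to 0.176 CPM in the smallest library. Ligand transcripts below this level were not detectable at this depth. The read counter is not stated, so whether reads shared by similar Ifna genes were dropped cannot be told. Trex1, on the list of inhibitors of interferon signaling, also had 0 counts in every library. The receptor gene Ifnar1 was at 189.8, 188 and 193 CPM in the control and 177, 176 and 176 CPM with IL-4, and Ifnar2 was lower with IL-4 (log2 -0.66, edgeR adjusted p = 1.62e-07) and with IL-13 (log2 -0.56, edgeR adjusted p = 1.56e-06) than in the control. Ifngr1, the ligand-binding chain of the interferon-gamma receptor, fell on co-addition of IL-6, from 170.4, 169.7 and 172 to 70.3, 75.1 and 76.9 CPM with IL-4 (log2 -1.20 ± 0.0630, edgeR adjusted p = 7.30e-11) and from 169.9, 189 and 174 to 109.8, 119 and 115 CPM with IL-13 (log2 -0.63 ± 0.0619, edgeR adjusted p = 4.30e-07), without overlap in either.

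Of the 12 receptor kinases and transcription factors, 5 rose and 4 fell with IL-4, 4 rose and 5 fell with IL-13, 2 rose and 5 fell on adding IL-6 to IL-4, and 2 rose and 2 fell on adding it to IL-13. The shares of all tested genes called higher and lower in these comparisons were 32.1% and 35.9%, 29% and 31.1%, 20.7% and 18.7%, and 12.1% and 13.5%. Without IL-13/IL-6 replicate 3, adding IL-6 to IL-13 raised 1 and lowered 3. Irf7, the master regulator of interferon induction and itself an ISG, was at 16.0, 16.9 and 17.7 CPM in the control, 32.9, 26.7 and 27.3 with IL-4, 16.7, 18.03 and 18.7 with IL-4/IL-6, 47.6, 45.6 and 42.8 with IL-13 and 34.9, 33.1 and 81.1 CPM with IL-13/IL-6, where replicate 3 again stood above the other 2. Jak2, which serves the interferon-gamma receptor, rose with IL-6 by log2 1.67 on IL-4 and 0.56 on IL-13 (edgeR adjusted p = 4.42e-11 and 6.64e-05), and Irf5 changed by -1.44 and -0.65 (edgeR adjusted p = 1.13e-11 and 4.16e-07).

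Among 11 sensors and adaptors upstream of interferon, 1 rose and 7 fell with IL-4 and 1 rose and 6 fell with IL-13, while adding IL-6 raised 4 and lowered 3 with IL-4 and raised 5 and lowered 1 with IL-13, to be read against the same shares of all genes. Without IL-13/IL-6 replicate 3 the counts on IL-13 were 4 and 1. Mb21d1, which encodes the DNA sensor cGAS, was the one that rose with IL-4 and with IL-13 (log2 1.01 and 1.22), and it fell with IL-6 on IL-4 (log2 -0.71, edgeR adjusted p = 1.29e-05) and on IL-13 (log2 -0.47, edgeR adjusted p = 0.00110). Tmem173, which encodes the adaptor STING, rose with IL-6 from 41.6, 48.0 and 48.6 to 114, 111 and 105 CPM on IL-4 and from 50.1, 51.3 and 46.5 to 129.97, 134 and 134 CPM on IL-13 (edgeR adjusted p = 5.21e-10 and 1.76e-10). Without IL-13/IL-6 replicate 3 the changes on IL-13 remained called, at log2 -0.43 for Mb21d1, 1.41 for Tmem173, 0.54 for Jak2, -0.72 for Irf5 and -0.65 for Ifngr1, and Irf7 was called lower (-0.43, edgeR adjusted p = 0.00547). Tlr9, a sensor of unmethylated DNA, was at 40.9, 38.7 and 44.0 CPM in the control and 2.09, 1.55 and 1.69 CPM with IL-4 (log2 -4.53 ± 0.195, edgeR adjusted p = 2.82e-12). Of the inhibitors, Socs1 was at 1.04, 1.11 and 0.898 CPM in the control, 40.0, 38.5 and 31.6 with IL-4 and 12.2, 9.46 and 9.33 CPM with IL-13, and Socs3, a STAT3 target, at 1.28, 1.55 and 2.24 CPM with IL-4 and 143, 121 and 122 CPM with IL-4/IL-6 and at 1.66, 1.13 and 1.03 CPM with IL-13 and 105, 106 and 109.5 CPM with IL-13/IL-6. Socs1 did not overlap between either cytokine and the control, nor Socs3 between libraries with and without IL-6, and Socs3 in IL-13/IL-6 replicate 3 was close to the other 2 libraries of that group.

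**Figure D5:**
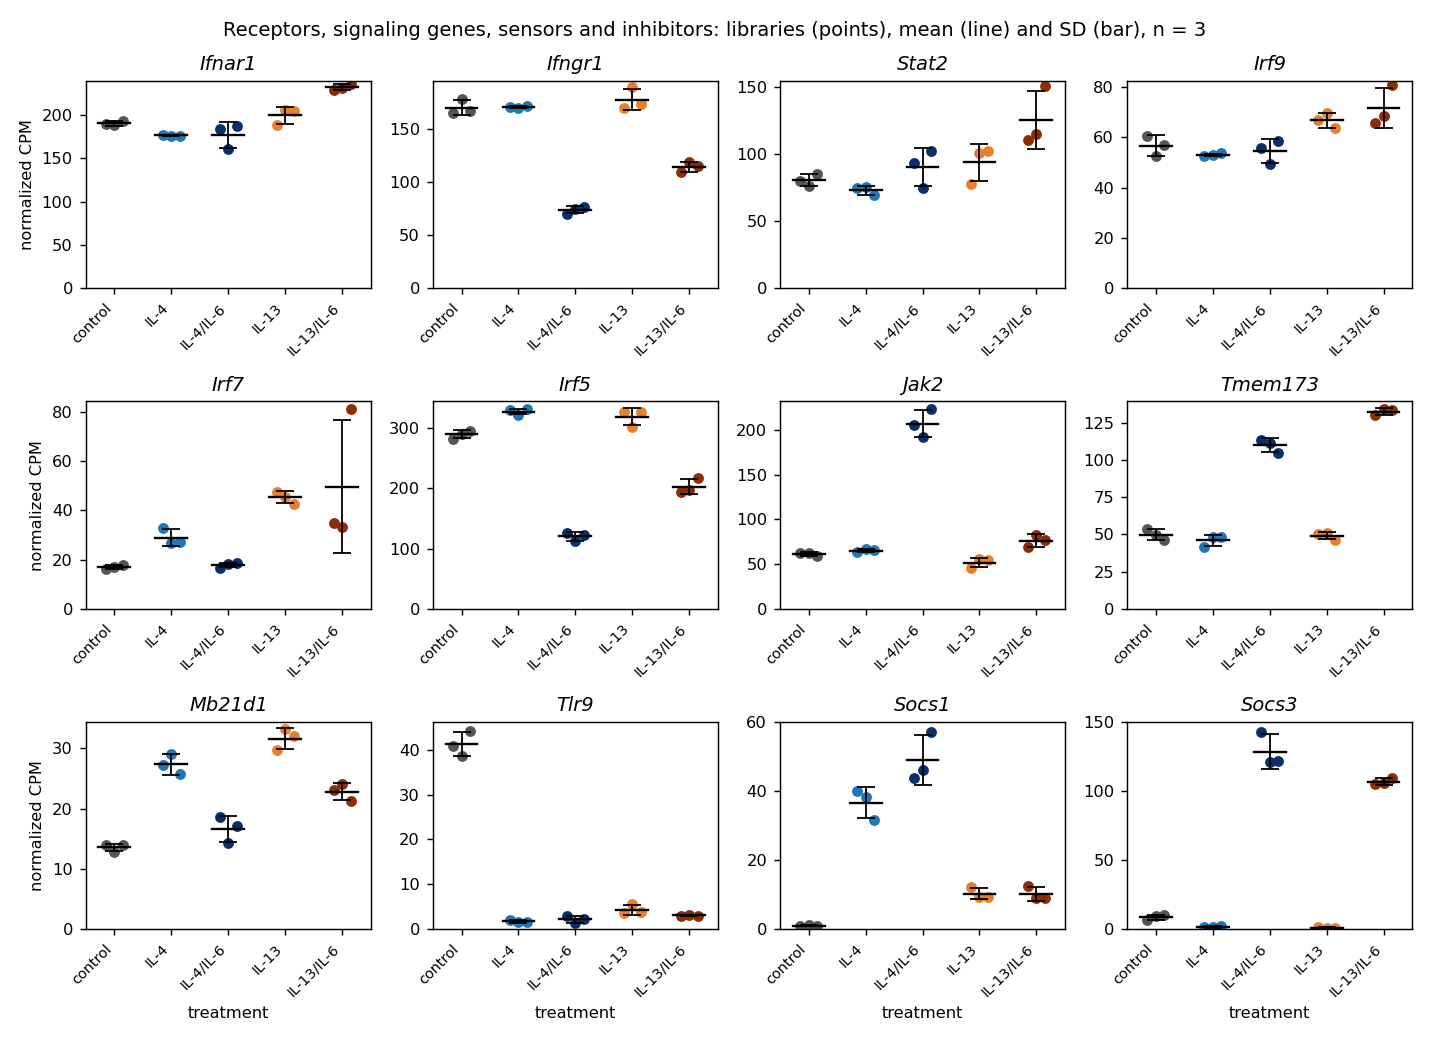
Normalized CPM (linear axis from 0) of 12 interferon pathway genes in every library by treatment, with the mean as a line and the SD as a bar (n = 3). Ifngr1 and Irf5 are lower and Tmem173 and Socs3 higher with IL-6 on both cytokines, and Irf7 in IL-13/IL-6 replicate 3, at 81.1 CPM, lies far above the other 2 libraries of that group.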

How the data were processed

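The read counter and the strand setting of the RNAseq are not given in the sources used here. The authors deposited a matrix of raw read counts per Ensembl gene for all 15 libraries and a list of FPKM values per library, and the submitters' processing notes name GRCm38, CASAVA, Bowtie2 2.2.3, HISAT2 2.1.0, TopHat2 and DESeq2 without saying which step each served. Without a stated strand setting, reads of genes that overlap on opposite strands cannot be told apart. RNA was extracted from the cells after 24 h with Trizol, according to the study's methods. The dose of IL-13 comes from the study's supplementary text.

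Counts were tested with edgeR 4.0.16 in R 4.3.3 (TMM scaling, filterByExpr with a minimum count of 10, quasi-likelihood F test) in a single fit of all 15 libraries without covariates, and p-values were adjusted by Benjamini-Hochberg over the 13938 genes that passed. A gene was called at an adjusted p below 0.05. FPKM were used only to compare levels between genes, and were not tested. Fold changes are given as log2 with their standard error, and a gene at or under 3 counts in each library of a group was given a bound in place of a fold change. Depth was alike in all libraries, and members of few counts, such as Ifi44 and Ifit3b, are limited by counting error as well as by replicate spread, which as a biological coefficient of variation ranged from 4.48% in the control to 14.8% in IL-4/IL-6.

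The members and the pathway and marker lists were chosen with earlier results of these data known. Library values were given for the 3 called members with the largest change in either direction in each comparison of a cytokine with control or of IL-6 with its cytokine, for those with the largest difference between the IL-6 effects, for the 3 of highest mean FPKM and for the highest of each role group. Upper-quartile and RLE scaling, no filter and a stricter filter on low counts, DESeq2 1.42.0, a replicate block, fits of the compared groups only and leaving out each library were tried as alternatives. The main fit did not pair libraries by replicate number, and the labels do not say whether such a pairing exists. Some details are not reported here.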

Additional observations from a re-analysis of the deposited data

Results flagged for a closer look

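The effect of IL-6 differed between the IL-4 and the IL-13 background in 5 of 56 members and 6 of 36 tested pathway genes by edgeR's interaction test at an adjusted p below 0.05, where 4.42% of all tested genes were called with a more positive effect on IL-13 and 3.22% with a more negative one, with values given as the log2 effect on IL-13 minus that on IL-4. Among the members the difference was 1.67 for Ifi209, 1.09 for Oasl2, 1.04 for Phf11b, 0.74 for Ifitm3 and 0.58 for Sp100. Among the pathway genes it was -1.11 for Jak2, 0.79 for Irf5, 0.57 for Ifngr1, 0.53 for Ikbke, 0.44 for Ptpn6 and 0.38 for Irf8. Jak2 rose with IL-6 on both cytokines, by more on IL-4, and Irf5 and Ifngr1 fell on both, by more on IL-4. Groups of 3 libraries were too small for a search for single outlying libraries by the gap between them.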

How the results depend on the processing

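The 26 results compared here were counts of called members and median changes. Of their 572 values under 22 alternatives, 524 stayed within 1.5 times the main count or within the spread of the main value, and 48 moved. Among changes of single members called in the main fit, none changed sign in an alternative that tested the gene. Without the filter on low counts, IL-4/IL-6 over IL-4 had 30 members lower, IL-13/IL-6 over IL-13 had 16 higher and 3 lower, IL-13 over IL-4 had 31 higher, IL-13/IL-6 over IL-4/IL-6 had 2 lower, and the difference of the IL-6 effects called 28 higher. In fits of the compared groups only, IL-13 over IL-4 had 28 higher, and IL-13/IL-6 over IL-13 and over IL-4/IL-6 each had 0 lower. DESeq2 called 10 members in the difference of the IL-6 effects and 2 lower in IL-13/IL-6 over IL-13, and upper-quartile scaling also gave 2 lower there.

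Over the fits that leave out 1 library, the counts ranged as follows. Members lower ranged from 2 to 5 in IL-13 over control, from 0 to 8 in IL-13/IL-6 over IL-13, from 1 to 5 in IL-13/IL-6 over control, from 0 to 2 in IL-13/IL-6 over IL-4/IL-6, and from 0 to 1 in the difference of the IL-6 effects. Members higher ranged from 2 to 5 when IL-6 was added to IL-4, from 7 to 23 in IL-13 over IL-4 and from 4 to 12 in the difference of the IL-6 effects. The median member ranged from -0.09 to 0.01 in IL-4 over control and from -0.15 to 0.22 in IL-13/IL-6 over IL-13, and its sign changed without IL-4 replicate 3 (0.01) in the first and without IL-13/IL-6 replicate 3 (-0.15) in the second. Shares of all tested genes are given above only for some comparisons without IL-13/IL-6 replicate 3. Whether genes at large shifted alike in the other fits is not shown. A library outside a comparison enters it only through the filter, scaling and spread estimate of the shared fit. The cause of these shifts was otherwise not tested.

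Of 30 same-numbered pairs of libraries from different groups, 3 correlated above 0.1 (range -0.28 to 0.16). The 60 other pairs ranged from -0.349 to 0.393. Such correlations cannot tell whether same-numbered libraries share a mouse or culture, and the main fit left them unpaired. With a replicate block, IL-13/IL-6 over IL-13 had 3 members higher and 2 lower, and the difference of the IL-6 effects called 6.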
